A study of Danio rerio with 4 samples.

Results

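The vascular endothelial growth factor (VEGF) ligands and receptors were followed in coronary endothelial cells, which form the inner wall of the blood vessels that supply the heart. The rule named 10 zebrafish genes by symbol: the receptor genes flt1, kdr, kdrl and flt4 and the ligand genes vegfaa, vegfab, vegfc, vegfd, pgfa and pgfb. Of these, 9 had a row among the 20306 genes of the deposited table, and pgfa was not analysed here. The cells came from wild-type (WT) ventricles that were cryoinjured, that is, injured by freezing, and were taken 7 days after the injury. All cells were sorted for red fluorescence from a reporter driven by a short flt1 promoter fragment. They were then split by yellow fluorescence from a reporter of cxcr4a, whose product is a chemokine receptor found on growing vessels, into positive and negative cells. The table heads its columns Regenerating and Non-Regenerating, with 2 libraries each. Regenerating was taken to be the cxcr4a:YFP+ gate, which the labels do not spell out, so every direction given here rests on that reading. No uninjured hearts are among the samples, so injury itself was not compared. The labels do not say whether the libraries of a group came from separate animals or pools, so the spread behind the p-values may be technical rather than between animals.

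VEGF ligands are secreted dimers that bind receptor tyrosine kinases on endothelial cells and drive vessels to sprout, grow and survive. Vegfaa and Vegfab are the zebrafish forms of VEGF-A and act mainly through Kdr and Kdrl. Flt1 binds VEGF-A tightly but signals weakly and, also as a soluble form, acts as a trap. The placental growth factors bind Flt1. Vegfc acts through Flt4, a receptor of lymphatic, venous and sprouting vessels, as VEGF-D does in mammals. Vegfc is made as a precursor that the protease Adamts3 cuts with the help of the matrix protein Ccbe1, and neuropilin 2 serves as a co-receptor.

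Values are normalized counts per gene, and the libraries summed to between 10481747 and 10761712. All 14 endothelial markers were found, with summed values between 62109 and 72472 and cdh5, the endothelial cadherin, between 11643 and 12629. The gate gene cxcr4a had values of 2285 and 2242 in Regenerating, compared with 585 and 590 in Non-Regenerating. Transcripts of heart muscle, wall and blood cells were present in all libraries, and their values stand below beside the VEGF genes.

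The question was which VEGF genes differ between the sorted populations. The ligand genes vegfc and pgfb had higher values in both Regenerating libraries, by 2.61-fold and 3.12-fold, and the receptor gene flt4 had lower values, by 3.14-fold. The receptor genes kdr and kdrl, the main VEGF-A receptors, differed by 1.06-fold and 1.07-fold, which was within the error of the fit. None of the 9 genes passed Benjamini-Hochberg adjustment in limma over the 16928 genes tested, where only 0.00591% of all genes passed. At an unadjusted p under 0.05 there were 3 of the 9, namely vegfc and pgfb higher and flt4 lower, against 12.8% of all genes (7.62% higher and 5.19% lower). That count was lower without Regenerating replicate 2 or either Non-Regenerating library, and so was the share of all genes at that threshold. The groups did not overlap for 5 of the 9 genes, 2 higher and 3 lower, against 43.2% of all genes (21.8% higher and 21.5% lower). The median log2 fold change was -0.08 over the 9 genes and 0.00 over all genes tested.

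**Figure D1:**
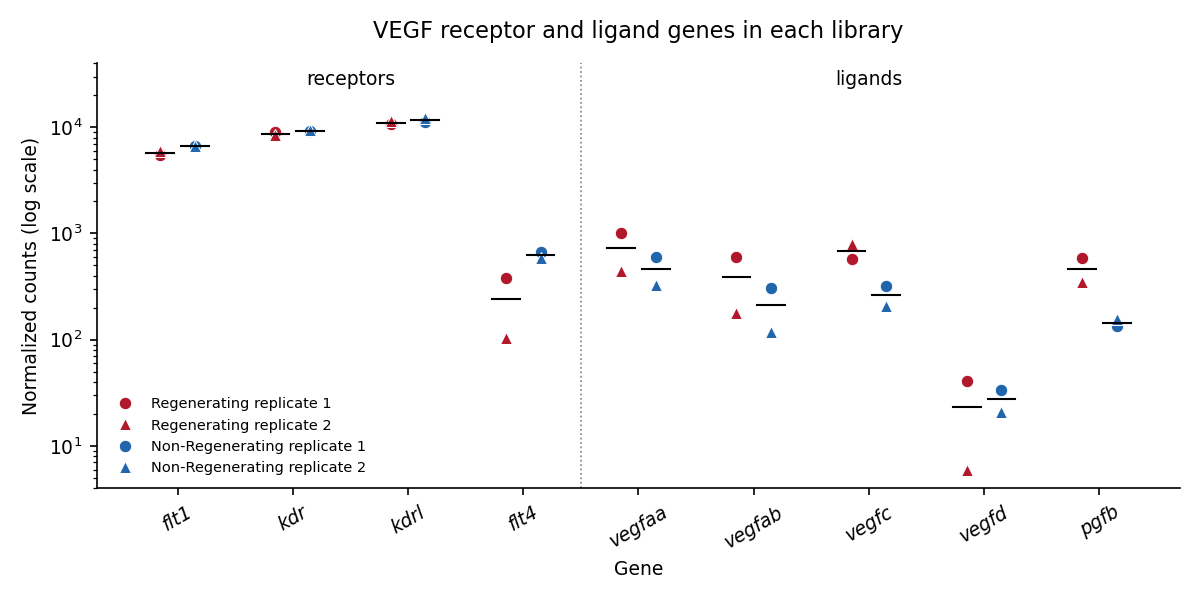
Normalized counts (log axis) of the 4 receptor and 5 ligand genes in each library, with circles for replicate 1, triangles for replicate 2 and bars for group means. The pairs for kdr and kdrl lie almost on each other, those for vegfc and pgfb are higher in Regenerating, and flt4 is lower there with a wide gap between its libraries.

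Among the receptors, kdrl (ENSDARG00000105215, chromosome 14, 32983769 to 33044955, minus strand, danRer11) read 10626 and 11392 in Regenerating, compared with 11230 and 12236 in Non-Regenerating. Its groups overlapped, with a log2 fold change of -0.09 (SE 0.0882, limma adjusted p = 0.746). The 95% interval ran from -0.32 to 0.13 on the log2 scale, so values up to 1.25-fold lower in Regenerating lie within it. The kdr gene (ENSDARG00000017321, chromosome 20, 22220988 to 22277544, plus strand), the zebrafish counterpart of the mammalian VEGFR2 gene, read 9068 and 8385 against 9136 and 9328. Both Regenerating values were below both others, but by little, with a log2 fold change of -0.08 (95% interval -0.30 to 0.14, limma adjusted p = 0.769). The kdrl values ranked from 3 to 5 among all rows of their libraries and reached 73.6% to 84.1% of the highest value there, in normalized counts not divided by gene length. Whether differences between genes with such high values are compressed was not tested.

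The flt1 gene (ENSDARG00000019371, chromosome 24, 21750810 to 21808819, minus strand) read 5496 and 5925 in Regenerating, compared with 6595 and 6649 in Non-Regenerating. The groups did not overlap and differed by 1.16-fold, with a log2 fold change of -0.21 (SE 0.0922, limma adjusted p = 0.436, unadjusted p = 0.0665). Because a reporter of this gene selected all the cells, its presence in every library follows from the sort. The counts are per gene, so the membrane-bound and soluble forms of Flt1 cannot be told apart.

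The flt4 gene (ENSDARG00000104453, chromosome 14, 15816509 to 15956921, minus strand) read 385 and 103 in Regenerating, compared with 668 and 592 in Non-Regenerating. Its values were lower in both Regenerating libraries, but these differed from each other by 3.74-fold, more than the group means did. The log2 fold change was -1.65 (SE 0.628, limma adjusted p = 0.381, unadjusted p = 0.0457), and leaving out Regenerating replicate 1 gave -2.60 and leaving out Regenerating replicate 2 gave -0.71. As in any bulk sample, fewer cells that carry a transcript and less transcript per cell cannot be told apart.

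**Figure D2:**
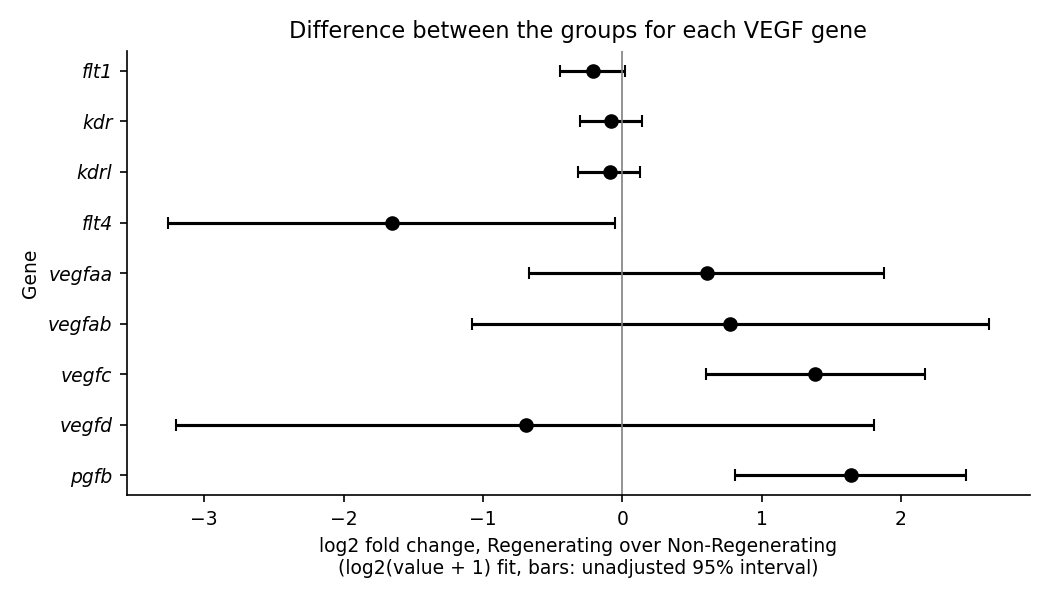
Log2 fold change of each gene between Regenerating and Non-Regenerating libraries from the limma fit of log2(value + 1), with bars for the unadjusted 95% interval. The intervals of vegfc and pgfb lie above 0 and that of flt4 just below 0 (upper end -0.05), while those of kdr and kdrl are narrow and hold 0.

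Among the ligands, vegfc (ENSDARG00000069640, chromosome 1, 38850830 to 38908197, minus strand) read 573 and 797 in Regenerating, compared with 320 and 209 in Non-Regenerating. The lowest Regenerating value was 1.79 times the highest Non-Regenerating one. The log2 fold change was 1.38 (SE 0.307, 95% interval 0.60 to 2.17, limma adjusted p = 0.202, unadjusted p = 0.00615). It stayed between 1.08 and 1.69 when any 1 library was left out.

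The placental growth factor gene pgfb (ENSDARG00000076767, chromosome 17, 44697604 to 44752439, plus strand) had the smallest unadjusted p of the 9 genes. It read 584 and 351 in Regenerating, compared with 134 and 156 in Non-Regenerating, and the lowest Regenerating value was 2.25 times the highest Non-Regenerating one. The log2 fold change was 1.64 (SE 0.326, 95% interval 0.81 to 2.47, limma adjusted p = 0.189, unadjusted p = 0.00383), ranking 344 of 16928 genes by p. It lay between 1.27 and 2.01 when any 1 library was left out. Set against its receptor gene within each library, the ratio of pgfb to flt1 counts was 0.106 and 0.0592 in Regenerating, compared with 0.0203 and 0.0235 in Non-Regenerating.

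The VEGF-A genes varied more within the groups than between them. The vegfaa gene (ENSDARG00000103542, chromosome 16, 4287542 to 4317879, minus strand) read 1018 and 444 in Regenerating, compared with 602 and 324 in Non-Regenerating. Its groups overlapped, and the log2 fold change of 0.61 had a 95% interval from -0.67 to 1.88 (limma adjusted p = 0.699). Leaving out Regenerating replicate 1 gave 0.01, Regenerating replicate 2 gave 1.2, Non-Regenerating replicate 1 gave 1.05 and Non-Regenerating replicate 2 gave 0.16. The vegfab gene (ENSDARG00000034700, chromosome 4, 5568688 to 5597802, minus strand) read 597 and 179 against 306 and 119. Its log2 fold change was 0.77, with an interval from -1.08 to 2.63 (limma adjusted p = 0.739). The order of the libraries was the same for both genes, with Regenerating replicate 1 highest, then Non-Regenerating replicate 1, Regenerating replicate 2 and Non-Regenerating replicate 2. Between libraries of the same replicate number, Regenerating was thus the higher for both genes. With the replicate number added to the fit, the limma adjusted p was 0.141 for vegfaa and 0.151 for vegfab. The labels do not say whether same-numbered libraries belong together. Replicate 1 exceeded replicate 2 by 2.29-fold and 1.86-fold for vegfaa in Regenerating and Non-Regenerating, and by 3.34-fold and 2.57-fold for vegfab. The vegfab values were 0.586 and 0.403 of the vegfaa values in Regenerating and 0.508 and 0.367 in Non-Regenerating, again overlapping.

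The vegfd gene (ENSDARG00000056624, chromosome 11, 29889828 to 29916607, minus strand) had few counts, at 41 and 6 in Regenerating, compared with 34 and 21 in Non-Regenerating. The Regenerating libraries held both its highest and its lowest value. Its log2 fold change of -0.69 had a 95% interval from -3.20 to 1.81 (limma adjusted p = 0.842), with a 6.83-fold gap between the Regenerating libraries. No other row of the table overlapped the span of any of the 9 genes.

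Among other genes of the Vegfc branch, the co-receptor gene nrp2a and the processing gene adamts3 had higher values in Regenerating and the co-receptor gene nrp2b lower ones. The list of co-receptors, other ligands and ligand processing genes had 10 of its 11 members found and tested, of which 2 were higher and 1 lower at an unadjusted p under 0.05 and 7 did not pass. The 3 of 10 that passed stand beside 12.8% of all genes (7.62% higher and 5.19% lower). None passed adjustment over all genes. Its median log2 fold change was 0.47. The nrp2a gene read 682 and 896 in Regenerating, compared with 217 and 180 in Non-Regenerating, with a log2 difference of 1.98 (SE 0.243, limma adjusted p = 0.157). Its paralogue nrp2b was lower in Regenerating, with 272 and 221 against 828 and 492, with a log2 difference of -1.38 (SE 0.317, limma adjusted p = 0.206). The groups overlapped for neither. The protease gene adamts3 read 138 and 280 against 67 and 52, with a log2 difference of 1.72 (SE 0.450, limma adjusted p = 0.242). The count of 3 fell without Regenerating replicate 2, as did the share of all genes at that threshold.

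The remaining members of that list are named here after their values were seen, since none had an unadjusted p under 0.05. The gene ccbe1, which encodes the cofactor of Vegfc cutting, read 33 and 43 in Regenerating, compared with 25 and 11 in Non-Regenerating. The protease gene adamts14, which also acts on Vegfc in zebrafish, read 21 and 23 against 3 and 12. Both genes had few counts, with values that did not overlap between the groups. Over the 10 tested genes of the list, 5 were higher and 2 lower without overlap, nrp1a and plxnd1 among them. Of all genes, 21.8% were higher and 21.5% lower without overlap. The matrix gene svep1, needed for lymphatic sprouting in zebrafish, read 63 and 51 against 39 and 60, which overlapped. The neuropilin 1 genes, co-receptors of VEGF-A, read 2662 and 2619 against 2307 and 2211 for nrp1a and 2032 and 1638 against 2102 and 1915 for nrp1b. The plexin gene plxnd1, a semaphorin receptor of endothelium, read 1443 and 1262 against 1518 and 1762. The VEGF-B gene vegfba read 25 and 61 against 15 and 36.

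**Figure D3:**
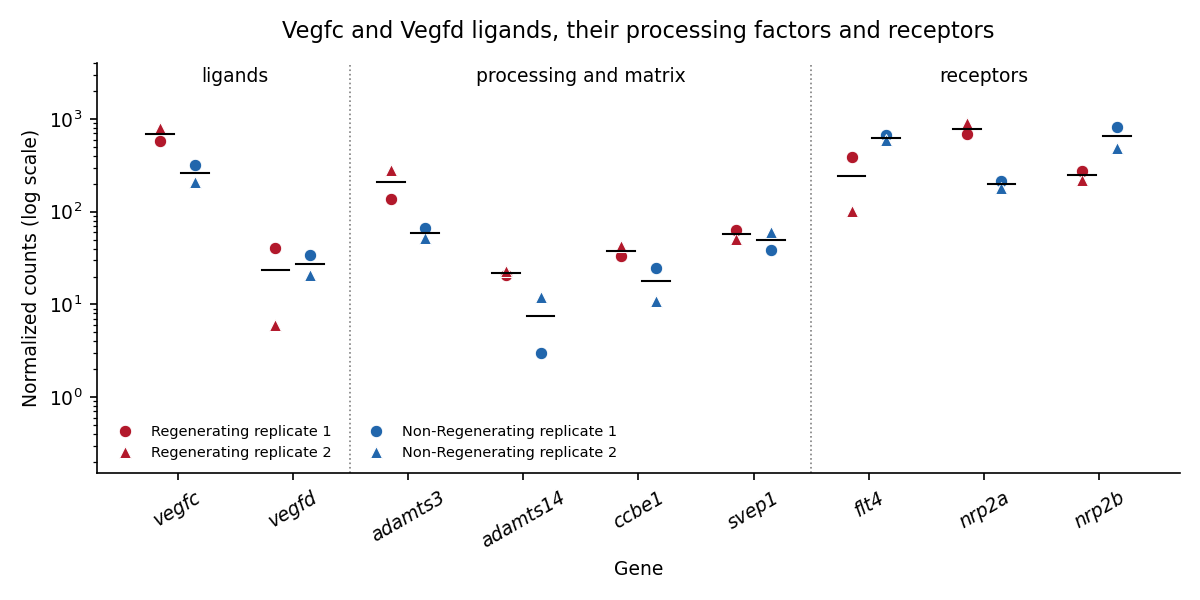
Normalized counts (log axis) of the ligand genes vegfc and vegfd, of processing and matrix genes and of flt4 and the neuropilin 2 genes in each library, with bars for group means. The Regenerating values of vegfc, adamts3, adamts14, ccbe1 and nrp2a lie above the Non-Regenerating ones, and those of flt4 and nrp2b lie below.

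Summed over the genes, ligand counts were higher and receptor counts lower in the Regenerating libraries. The 5 ligand genes summed to 2813 and 1777 normalized counts in Regenerating, compared with 1396 and 829 in Non-Regenerating. The 4 receptor genes summed to 25575 and 25805 against 27629 and 28805. Neither sum overlapped between the groups, and each had an exact two-sided permutation p = 0.333, the smallest that 2 libraries against 2 allow. The ratio of vegfc to flt4 counts was 1.49 and 7.74 in Regenerating, compared with 0.479 and 0.353 in Non-Regenerating.

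The receptor counts had a similar make-up in both groups, with the widest relative difference in flt4. The share of flt1 was 22.2% ± 1.04 in Regenerating against 23.5% ± 0.557 in Non-Regenerating libraries (mean ± SD, n = 2 each, exact permutation p = 0.333). The kdrl share was 42.8% ± 1.84 against 41.6% ± 1.30 and the kdr share 34.0% ± 2.10 against 32.7% ± 0.483, and both overlapped. The flt4 share was 0.952% ± 0.782 against 2.24% ± 0.256, without overlap. Among the ligand counts, vegfaa and vegfab together held 46.2% ± 15.8 in Regenerating and 59.2% ± 8.21 in Non-Regenerating, which overlapped (exact permutation p = 0.667, n = 2 each). In Regenerating replicate 2 alone vegfc was the most counted ligand gene, with 44.9% of the ligand counts (95% Wilson interval 42.6% to 47.2%, counting error only), against 20.4% to 25.2% in the other libraries. The pgfb share was 20.8% and 19.8% in Regenerating, compared with 9.60% and 18.8% in Non-Regenerating. With the normalized values taken as read counts, which they are not, counting error alone gives these shares an uncertainty of at most 3.39 percentage points either way. The shares are of counts, not of transcript numbers, since no gene lengths were applied.

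**Figure D4:**
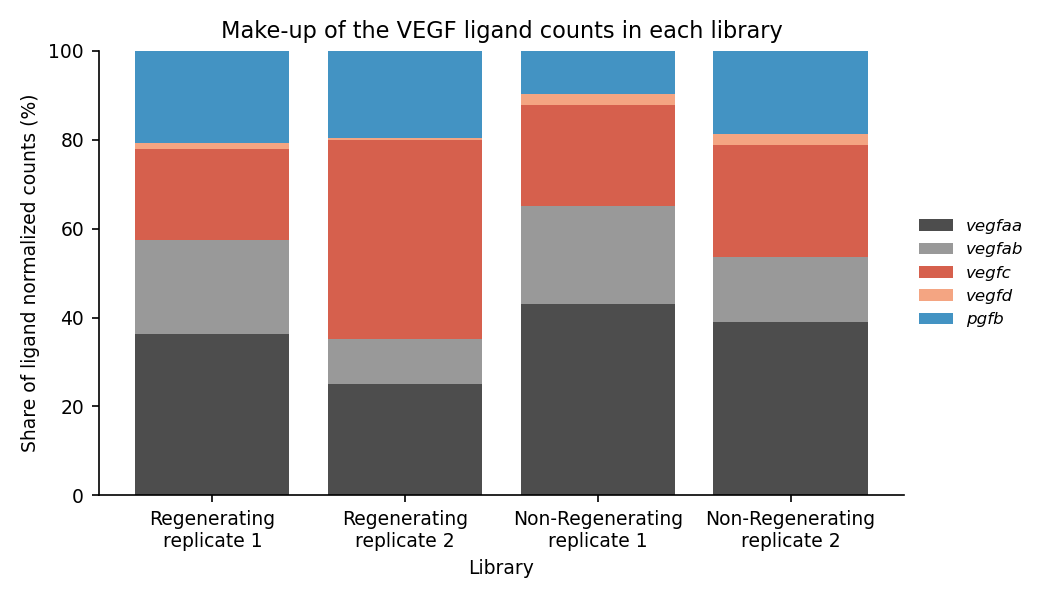
Share of each ligand gene (% of the summed normalized counts of the 5 ligand genes) in each library. The vegfc share is largest in Regenerating replicate 2 (44.9%), and the vegfaa share is largest in Non-Regenerating replicate 1 (43.1%).

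Downstream of the receptors, 22 of 24 tested signalling genes did not pass at an unadjusted p under 0.05. Of 30 named genes of receptor signalling and trafficking, 24 were tested, with 1 higher and 1 lower at an unadjusted p under 0.05 and a median log2 fold change of 0.08. The 8.33% that passed lie below the 12.8% of all genes. Without Regenerating replicate 2 the count was lower, as was the share of all genes. The adaptor gene shc1 was the higher one, at 3086 and 3393 against 2532 and 2660. The kinase gene map2k1, which encodes a MAP kinase kinase, was the lower one, at 854 and 683 against 1527 and 1175. The phospholipase gene plcg1, which acts directly below Kdr and is named here after its values were seen, read 5469 and 6108 against 4650 and 6905. The 67 tested genes that the table annotates to the KEGG VEGF signaling pathway, other than the VEGF genes themselves, had 6 higher and 3 lower, or 13.4%, near the share of all genes, and a median of 0.05. This list was added after the data were seen, and the other gene lists were chosen with earlier results of these data known. Its smallest p-values belonged to the phospholipase genes pla2g4f.1 (64 and 66 against 7 and 4) and pla2g4ab (31 and 9 against 452 and 176), which differed in opposite directions. The first entered the test only through Regenerating, which fixed its direction, and 5 were higher without it. The pathway's count of 9 was lower without either Regenerating library or Non-Regenerating replicate 1, as was the share of all genes. It was higher without Non-Regenerating replicate 2, though the share of all genes was slightly lower.

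Genes that respond to VEGF in endothelium were split between the groups. Of 26 named response genes, 22 were tested, with 5 higher and 5 lower at an unadjusted p under 0.05, 12 that did not pass and a median log2 fold change of -0.06. The 45.5% that passed stand beside 12.8% of all genes. The count of 10 was lower when any library was left out, as was the share of all genes at that threshold. This count was also lower without the variance trend of the limma fit, where the share of all genes was only slightly lower. None passed adjustment over all genes. The tip cell gene esm1 was higher, at 1742 and 1475 in Regenerating against 683 and 916 in Non-Regenerating, with a log2 difference of 1.02 (SE 0.205, limma adjusted p = 0.189). The feedback inhibitor gene spry2 was lower, at 1485 and 1720 against 2682 and 2667, with a log2 difference of -0.74 (SE 0.133, limma adjusted p = 0.176). The immediate early gene nr4a1 was also lower, at 3691 and 3506 against 4975 and 4754, as was the apelin receptor gene aplnrb, at 955 and 983 against 1353 and 2085.

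The genes emilin2a, cxcl8a and cxcr1, which act below Vegfc in the regenerating zebrafish heart, did not share a direction. The matrix gene emilin2a read 4112 and 3331 in Regenerating, compared with 5040 and 5317 in Non-Regenerating, with a log2 difference of -0.48 (SE 0.136, limma adjusted p = 0.265). The chemokine receptor gene cxcr1 read 319 and 600 against 11 and 0. Its fitted log2 difference was 6.98 (SE 1.23, limma adjusted p = 0.176), or 5.19 to 8.78 when any 1 library was left out. With a value of 0 in Non-Regenerating replicate 2, this size depends on the 1 added before the log. The group means were 459.5 and 5.5. The chemokine gene cxcl8a, chosen after its values were seen, read 300 and 252 against 193 and 123. Neutrophils also express cxcr1, which is in the neutrophil marker list given below. The angiogenic genes angpt2a (978 and 646 against 461 and 488) and apln (6154 and 5442 against 3547 and 4807), likewise chosen after their values were seen, were the other higher genes, and egr3 (192 and 189 against 286 and 385), chosen in the same way, was the fifth lower one. The Notch ligand gene dll4, a classic VEGF response gene also chosen after its values were seen, read 5615 and 6344 against 5608 and 6234, with a log2 difference of 0.01 (SE 0.113).

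Among genes that act upstream of ligands and receptors, the oxygen-sensing genes egln1a, egln1b and vhl and the transcription factor genes nr2f2 and foxc1a had lower values in Regenerating at an unadjusted p under 0.05. All 13 hypoxia regulators were tested, with 0 higher and 3 lower at that threshold in limma, or 23.1% against 12.8% of all genes, and a median log2 fold change of -0.14. The prolyl hydroxylase genes egln1a (211 and 203 against 349 and 406) and egln1b (418 and 419 against 698 and 599) and the ubiquitin ligase gene vhl (318 and 408 against 557 and 573) encode the proteins that mark Hif factors, activators of VEGF-A transcription, for destruction. The count of 3 was lower whichever library was left out, as was the share of all genes at that threshold. Of 18 endothelial transcription factor genes, 0 were higher and 3 lower at the same threshold, or 16.7% against the same 12.8%, with a median of -0.13. The count at that threshold was higher without replicate 2 of either group and lower without Non-Regenerating replicate 1. The share of all genes at that threshold was lower in each of these cases. The vein gene nr2f2 read 756 and 719 against 2545 and 2003 (log2 fold change -1.61, SE 0.172, limma adjusted p = 0.130), and foxc1a read 166 and 86 against 995 and 470. The gene gata2b read 0 and 0 against 14 and 12, at least 4.33-fold lower against a floor of 3 counts per library. It entered the test only through Non-Regenerating, so its direction was fixed by entry. Without it 2 of 17 were lower, and the median was also -0.13 with this gene at its bound. The ETS factor genes fli1a and etv2, which activate receptor genes in endothelium and were chosen after their values were seen, had log2 fold changes of -0.11 and 0.01.

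Markers of other cells differed between the libraries alongside several of these genes, and their part in the results was not tested. All 10 mural cell markers (smooth muscle and pericytes) were found, with summed values of 13979 and 9454 in Regenerating, compared with 8604 and 5000 in Non-Regenerating. Of these, 2 were higher at an unadjusted p under 0.05, where 7.62% of all genes were higher and 5.19% lower. Of 16 cardiomyocyte markers, 15 had a single row and summed to 51229 and 21951 against 11251 and 7693, with 12 higher. As for vegfaa and vegfab, Regenerating replicate 1 was highest and Non-Regenerating replicate 2 lowest in both sums. The middle libraries were in the other order. Regenerating replicate 2 exceeded Non-Regenerating replicate 1 in both sums but was below it for both genes. The largest mural value in every library was that of myh11a, at 7757 and 7956 in Regenerating against 4029 and 3298 in Non-Regenerating. Without that gene, Regenerating replicate 2 had the lowest mural sum. Of the 10 mural markers, 8 overlapped between the groups and 2 were higher without overlap. Of the 15 cardiomyocyte markers, 13 were higher without overlap, and 21.8% of all genes were. Cardiomyocytes and wall cells are known sources of VEGF-A.

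The 13 macrophage and monocyte markers found summed to 6088 and 6570 in Regenerating, compared with 3803 and 2682 in Non-Regenerating. Of these, 5 were higher at an unadjusted p under 0.05, where 7.62% of all genes were higher and 5.19% lower. The 6 neutrophil markers found, cxcr1 among them, summed to 5582 and 5119 against 3047 and 2230, with 4 of 5 tested higher. As for vegfc and pgfb, both sums were higher in both Regenerating libraries. So were the mural, cardiomyocyte and lymphoid sums, and 21.8% of all genes were higher without overlap. The largest macrophage and monocyte value in every library was that of lcp1 (2585 and 2950 against 1626 and 1892). For neutrophils it was adam8a (3990 and 3464 against 2576 and 2068). The gene mpx, which encodes the neutrophil peroxidase and was picked out with its values known, read 1 and 3 against 9 and 4. The neutrophil marker lect2l, picked out likewise, read 471 and 718 against 33 and 3. The 9 lymphoid markers found, the largest being cd22 (518 and 446 against 425 and 350), summed to 706 and 604 against 497 and 395, with 3 of 6 tested higher. Of these 6, cd79b, pax5 and il7r entered the test only through Regenerating, and 1 of the other 3 was higher. The 7 erythrocyte and thrombocyte markers found summed to 958 and 811 against 1030 and 1795, with 0 of 4 tested genes at an unadjusted p under 0.05. The 13 epicardial and fibroblast markers, whose cells are another source of Vegfc, summed to 27940 and 30309 against 36910 and 33621, with 3 higher and 5 lower. The defining epicardial gene tcf21, picked out likewise, read between 10 and 52. Also picked out likewise, wt1b (101 and 111 against 51 and 47) and tbx18 (160 and 161 against 104 and 110) had higher values. Those of wt1a (23 and 13 against 34 and 29) and aldh1a2 (1477 and 932 against 4552 and 2799) were lower.

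The 6 lymphatic endothelial markers summed to 4061 and 2728 in Regenerating, compared with 6559 and 4044 in Non-Regenerating, which overlapped. There were 3 lower at an unadjusted p under 0.05, where 5.19% of all genes were lower. Of these, lyve1a read 173 and 75 against 638 and 808, and lyve1b 8 and 1 against 36 and 40, both named after their values were seen. Of all 6 markers, 4 were lower without overlap, against 21.5% of all genes. The other markers, prox1a (444 and 64 against 187 and 120) and stab1 (2808 and 1930 against 4819 and 2241), overlapped between the groups. The lyve1b gene entered the test only through Non-Regenerating, and 2 markers were lower without it. The 7 markers of endocardium, the endothelium of the heart chambers, summed to 7898 and 7335 against 15556 and 10505, with 5 lower. As for flt4, Regenerating replicate 2 was lowest in both sums. The summed values of the 14 general endothelial markers overlapped between the groups.

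**Figure D5:**
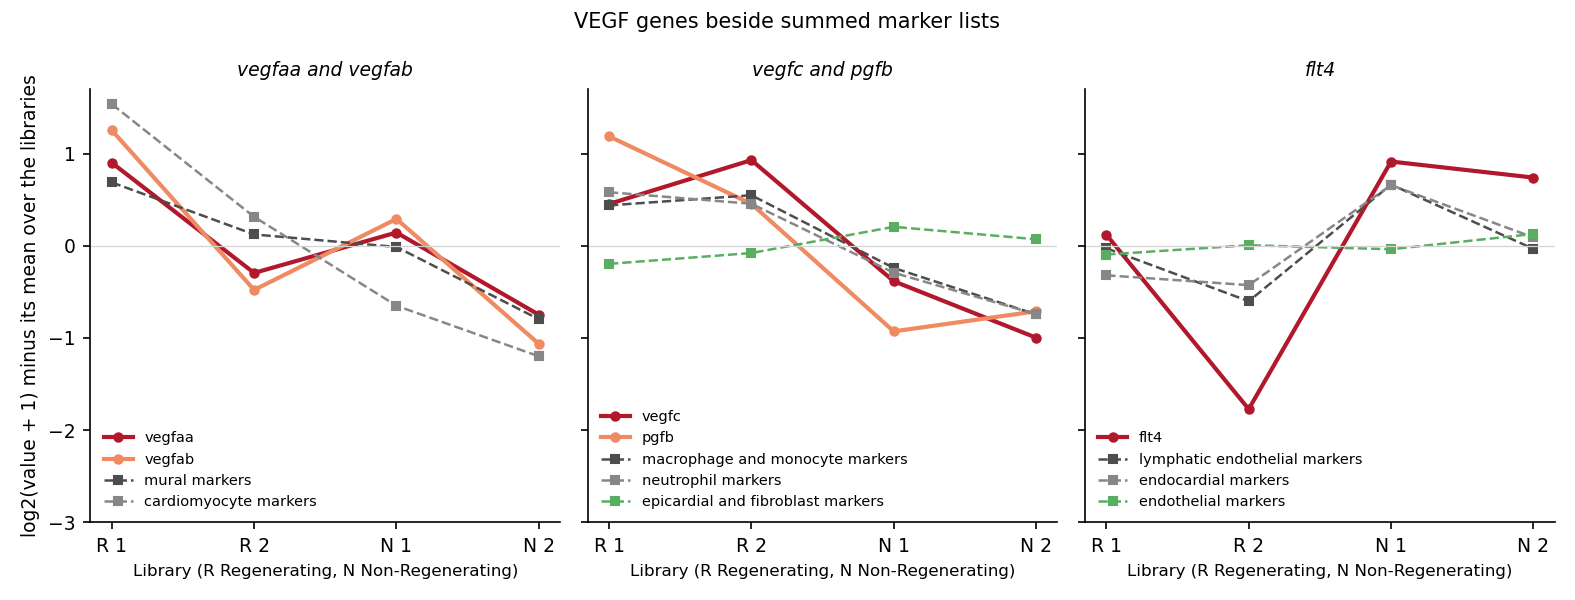
Log2(value + 1) in each library, less its mean over the 4 libraries, for VEGF genes (solid) and for the summed values of marker lists (dashed); lines only join the points of a series. The vegfaa and vegfab genes are highest in Regenerating replicate 1 with the mural and cardiomyocyte sums, but the middle libraries are in the other order. The flt4 gene is lowest in Regenerating replicate 2 with the lymphatic and endocardial sums.

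The genes whose values over the 4 libraries were nearest to those of pgfb, by Euclidean distance of centred log2(value + 1), were the protocadherin gene pcdh7b (118 and 67 against 26 and 27, distance 0.146), noxo1b (1333 and 833 against 309 and 416, distance 0.177) and si:dkey-184p18.2 (836 and 427 against 179 and 192, distance 0.190). With 4 libraries this likeness is a description only.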

How the data were processed

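Bulk RNA of sorted zebrafish coronary endothelial cells was sequenced in 4 libraries, 2 in each group, after full-length cDNA amplification with a SMART-Seq v4 kit, per the labels' protocols. Trimmomatic 0.39, STAR 2.7.11a, Picard 3.1.1, featureCounts 2.0.4, DESeq2 1.36.0 and the build danRer11 are named in the submitters' processing notes, without role or order. The deposited table holds, in a unit recorded here as a score, gene counts that the authors normalized and then rounded, as its name and whole-number values show. No count model was run on them, other than Wilson intervals for shares, which took them as counts. Strand use in counting is not given in the sources used here.

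The 16928 genes that reached 10 in 2 or more libraries, all 9 VEGF genes among them, were fitted as log2(value + 1), which understates folds of low genes, with limma 3.58.1 in R 4.3.3 (variance trend, 2 residual degrees of freedom) and Benjamini-Hochberg adjustment over all of them. The fit was tested on simulated data. Shares within a library were compared by exact permutation. All columns of values were used. The members, lists and tests were chosen with earlier results of these data known. Named genes were the VEGF genes, up to 6 genes of each list with an unadjusted p under 0.05, and the 3 genes nearest to the VEGF gene with the smallest p. Marker genes and other genes outside this rule were picked with their values known. The alternatives left out each library in turn, used no variance trend, changed the filter, pseudocount or scaling, or added the replicate block.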

Additional observations from a re-analysis of the deposited data

How the results depend on the processing

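Of the 12 alternatives, those that kept all 4 libraries called none of the 9 VEGF genes in limma. Apart from the replicate block, at most 1 of all genes tested passed adjustment in them. A count of 0 VEGF genes was thus all but fixed in advance there and says nothing on these genes. The filters, the variance trend and the replicate block cannot change a fold change in this design, so they say nothing on direction. Of 107 fold changes under all the alternatives, 105 kept their direction, a count that includes those that could not change. The exceptions were vegfab, at -0.09 without Regenerating replicate 1 (-0.09 to 1.64 with a library left out), and vegfd, at 0.60 without Regenerating replicate 2 (-1.99 to 0.60). When a library was left out, the share of all genes at an unadjusted p under 0.05 fell. The count of VEGF genes at that threshold then stayed the same or fell. This count was 3 or 2 under the other filters, pseudocounts and scalings and without the variance trend. With the replicate block in limma it was 6, adding flt1, vegfaa (limma adjusted p = 0.141) and vegfab (limma adjusted p = 0.151), against 20.6% of all genes at that threshold, and 357 genes passed adjustment in place of 1. The replicate numbers are all that same-numbered libraries are known to share, and the correlation of their deviations across genes was 0.339. The share differences were -1.25 and -13.0 percentage points for flt1 and for vegfaa with vegfab. The replicate block cannot change them, since each group holds each replicate number once. Leaving out a library gave -1.99 to -0.516 and -24.2 to -1.83 points. Shares per gene length were not run, since no exon lengths were used here, and vegfd had no value under the filter of 50. The counts for the lists under the alternatives were chosen after seeing the data. With the replicate block they were 8 in place of 2 for receptor signalling. For hypoxia regulators and for transcription factors they were each 5 in place of 3. Without the variance trend the count for response genes was 4 in place of 10. The share of all genes at that threshold was only slightly lower without the trend. The cause of these changes in the counts was not tested. Counts were low for vegfd, adamts14 and ccbe1.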
